A study of Homo sapiens with 4 samples.

Results

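REST, the repressor element 1 silencing transcription factor, and 9 genes for its corepressors were followed in SK-N-BE(2) cells after METTL14 knockdown. The 10 genes were taken by symbol from a table of 60671 gene IDs: REST, RCOR1, RCOR2, RCOR3, HDAC1, HDAC2, SIN3A, SIN3B, PHF21A and CTDSP1. The set was selected on fold changes already seen in the same comparison of these libraries, the decrease of REST among them. SK-N-BE(2) is a neuroblastoma cell line in which MYCN is amplified. METTL14 encodes a subunit of the enzyme that writes N6-methyladenosine (m6A) on RNA. The shNC group carried the control hairpin shNC and the shMETTL14 group a hairpin against METTL14, with 2 libraries of total RNA per group; no other allele, agent or time point was given. In the methods of the study, hairpins were delivered with the pLKO.1 lentiviral vector and infected cells were selected with puromycin, so that both groups went through infection and selection. The labels do not say which METTL14 hairpin the sequenced cells carried, and whether the libraries came from separate cultures is not stated, so their spread may be technical. The whole comparison rests on 1 cell line.

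REST is a zinc finger protein that binds a DNA element called RE1, or NRSE, near neuronal genes and keeps them silent in cells that are not neurons. It recruits corepressors at both ends of the protein. The amino terminus binds the SIN3 scaffolds, which carry the histone deacetylases HDAC1 and HDAC2, and the carboxy terminus binds CoREST, encoded by the RCOR genes, which brings the same deacetylases together with the histone demethylase KDM1A and the histone reader PHF21A. CTDSP1 encodes a small phosphatase that acts on RNA polymerase II and is found at REST-bound genes. As neural precursors become neurons, REST falls and its targets are released; neuroblastoma cells are derived from sympathetic precursors and express many of these targets already.

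The element is shown first, because REST acts through it. RefSeq promoter windows (GRCh38.p14, 250 bases before to 50 bases after each annotated start) were searched on both strands for the word CAGNACC, then any 2 bases, then GGACAG (N is any base), the core of RE1 without its outer bases. The word was found for 22 of 27305 gene symbols, or 0.0806%. It was in the windows of 3 of the 42 listed REST targets that had a window, GRIA2, SYN1 and CDK5R1, and of 0 of the 9 members that had a window (RCOR2 had none). The sites of the genes that could be tested for expression, and of GRIA2, are given below 5′ to 3′ along the strand of the word, with the fixed letters of the word in capitals.
SYN1 (chrX:47620071-47620091, minus strand): cttCAGcACCgcGGACAGtgc
TTC9B (chr19:40218349-40218369, plus strand): catCAGcACCggGGACAGcgc
VOPP1 (chr7:55527053-55527073, plus strand): gctCAGgACCagGGACAGaag
CDK5R1 (chr17:32486977-32486997, plus strand): ctgCAGaACCttGGACAGaag
OGDHL (chr10:49762422-49762442, minus strand): cgcCAGcACCgtGGACAGcgc
RPH3A (chr12:112791549-112791569, minus strand): ggtCAGcACCacGGACAGcgc
FAM163B (chr9:133609480-133609500, minus strand): cgtCAGcACCagGGACAGctc
UCN (chr2:27308600-27308620, minus strand): ggtCAGcACCatGGACAGcct
GRIA2 (chr4:157220389-157220409, minus strand): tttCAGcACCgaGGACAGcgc
A match is only a run of letters and does not show binding, and a gene without it may hold RE1 elsewhere, since many sites lie in introns outside these windows.

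Shorter words, the left arm CAGCACC and the right arm GGACAGC, were also sought, both of which can lie inside a full site. The right arm was in 6 of the 20 windows of member genes, where 6.03% of all windows held it, and the left arm in 2 of 20, where 7.75% held it. Windows of the same gene can share bases, so these are not independent counts. A right arm in a REST window, ggggctGGACAGCgatttc, lay on the plus strand at chr4:56908734-56908752, centred 167 bases before an annotated start of REST (-167).

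Depth was even across the libraries. Between 18925786 and 19886214 reads were counted in genes, and 16309 genes were expressed highly enough to test. The biological coefficient of variation was 3.45%. METTL14 itself had 753 and 754 counts in control cells and 303 and 321 counts after its knockdown (log2 fold change -1.26, SE 0.0832). All 9 noradrenergic markers, HAND2 and TH among them, were detected in every library, with a summed level between 4935 and 5166 CPM (counts relative to TMM-scaled library size). MYCN, which is amplified, gave the largest part of that sum; without it the other 8 summed to 2348 and 2340 CPM in shNC and to 1959 and 1973 CPM in shMETTL14. Of all tested genes 27.2% were called higher and 25.3% lower after knockdown; of the noradrenergic markers 2 were called higher and 7 lower. Of 10 mesenchymal markers, 2 were called higher and 4 lower, with sums between 2607 and 2726 CPM. VIM, which was not called, gave the largest part of these sums, between 1900 and 2001 CPM. PRRX1 was at 3 counts or fewer in each library. Sums for 5 Schwann cell markers and for 5 markers of blood, vessel, epithelial and liver cells were between 3.78 and 7.10 CPM, with SOX10 at 0; their part in the results was not tested.

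The libraries were compared to ask how the parts of the REST machinery stood after METTL14 knockdown. REST stood at 46.0% of its control level, RCOR3 at 76.2% and RCOR2 at 81.0%, while the deacetylase genes HDAC1 and HDAC2 were at 109% and 106%. In bulk RNA, fewer cells of a kind and less RNA per cell cannot be told apart. Calls were made where the adjusted p fell below 0.05 in the edgeR quasi-likelihood test across all 16309 genes. In that fit, 7 of the 10 members were called, 6 lower and 1 higher. Of all tested genes 52.5% were called, 25.3% lower and 27.2% higher. The members were chosen with results of this same comparison known, so their values are given as a description, no p-value is attached to them, and nothing is read from the count. The median log2 fold change (shMETTL14 over shNC) was -0.21 over the members and -0.00095 over all tested genes. In all 10 the groups did not overlap, 7 being lower and 3 higher after knockdown, and this was also so for 75.5% of tested genes (37.6% lower and 38.0% higher).

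**Figure D1:**
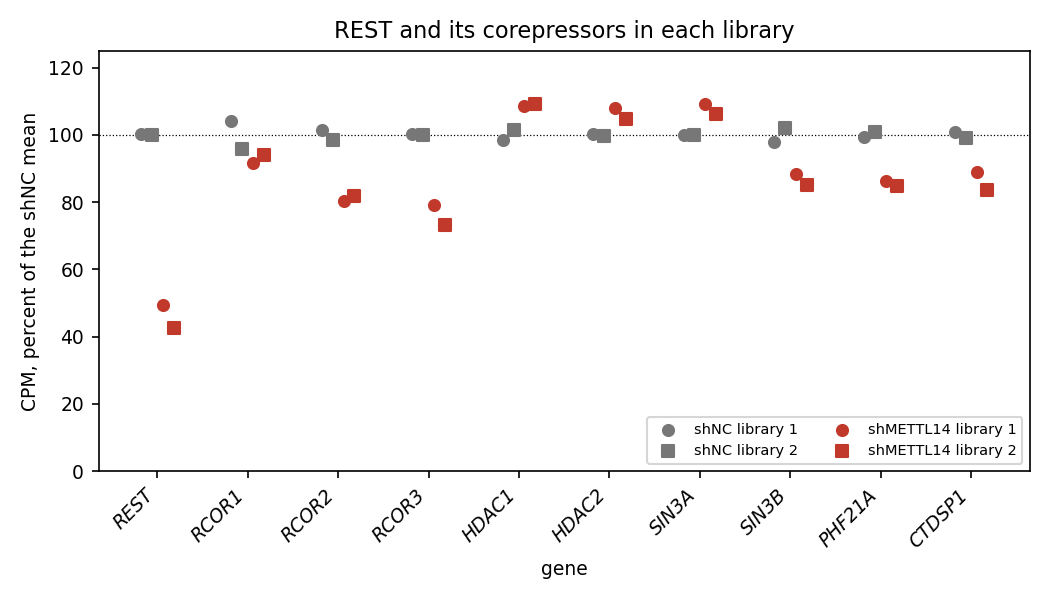
Level of each member gene in each library, in CPM as a percent of the mean of the 2 shNC libraries (dotted line at 100). Circles and squares are libraries 1 and 2 of a group; the shMETTL14 points for REST lie lowest, RCOR1 points of the groups lie closest, and the shMETTL14 points for HDAC1, HDAC2 and SIN3A lie just above the line.

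REST (ENSG00000084093) spans 56907876 to 56966678 on chromosome 4, plus strand (GENCODE 29 annotation of GRCh38, used for all gene positions here). It was read at 30.9 and 30.8 CPM in the shNC libraries and at 15.2 and 13.1 CPM in the shMETTL14 libraries. The control libraries were nearly equal, and both knockdown libraries lay far below them. The means were 30.9 ± 0.0666 and 14.2 ± 1.47 CPM (SD, n = 2 each), so that 46.0% of the control level was left. The log2 fold change was -1.12 (SE 0.0914). Of all tested genes, 5.28% had a lower log2 fold change than REST. Its annotated exons share 23 bases, or 0.288% of their length, with NOA1 on the other strand. NOA1, which encodes a mitochondrial GTPase, also fell, from 61.3 and 69.0 CPM to 49.2 and 46.0 CPM (log2 fold change -0.45, SE 0.0645, edgeR adjusted p 4.1e-06). Of the exon bases of NOA1, 14.2% are shared with other annotated genes, mostly with POLR2B (463 bases). Whether reads at shared bases entered the count of REST or that of NOA1 was not tested.

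Of the CoREST genes, RCOR2 and RCOR3 were called lower and RCOR1 was not called. RCOR1 (chromosome 14, 102592661 to 102730576) encodes the CoREST protein first found with REST. It was at 67.4 and 62.0 CPM in shNC cells and 59.2 and 60.9 CPM in shMETTL14 cells. The groups nearly met, and RCOR1 was not called at a log2 fold change of -0.11 (SE 0.0571). It was called lower in 3 of 11 alternative fits, among them the fit without shNC library 2, where the value was -0.16. Without shNC library 1 it was -0.0512 and not called.

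RCOR2 (chromosome 11, 63911221 to 63916844) encodes a CoREST paralog of neural precursors. It fell from 101 and 97.7 CPM to 79.7 and 81.1 CPM, a log2 fold change of -0.30 (SE 0.0476). RCOR3 (chromosome 1, 211258377 to 211316385), the remaining paralog, fell from 57.6 and 57.4 CPM to 45.6 and 42.1 CPM, a log2 fold change of -0.39 (SE 0.0619). For both genes every knockdown library lay below every control library, as was so for 37.6% of all tested genes. Their call held in 11 of 11 alternative fits, which reuse the same libraries and are no independent evidence. PHF21A (chromosome 11, 45929323 to 46121178), also known as BHC80, reads unmethylated histone H3 in the CoREST complex. It fell from 86.4 and 87.7 CPM to 75.2 and 73.9 CPM (log2 fold change -0.22, SE 0.0488), and its replicates were close in both groups.

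The deacetylase genes were slightly higher in the knockdown libraries. HDAC1 (chromosome 1, 32292086 to 32333635) was at 86.1 and 88.6 CPM in shNC cells and 94.8 and 95.2 CPM in shMETTL14 cells. Its log2 fold change was 0.12 (SE 0.0470), and its call was lost in 8 of 11 alternative fits, including those without shNC library 1 (0.10) and without either shMETTL14 library (0.13 each). HDAC2 (chromosome 6, 113933028 to 114011308), the most abundant member by count, was at 429 and 426 CPM against 461 and 447 CPM. It was not called at 0.09 (SE 0.0380). Against the control mean of 100%, HDAC1 stood at 109% and HDAC2 at 106%.

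Of the SIN3 scaffold genes, SIN3B was called lower and SIN3A was not called. SIN3A (chromosome 15, 75369379 to 75455842) was read with 1874 and 1800 counts in shNC cells and 2012 and 1924 counts in shMETTL14 cells, or 94.0 ± 0.0145 and 101 ± 1.97 CPM (SD, n = 2 each), and was not called at 0.11 (SE 0.0461). SIN3B (chromosome 19, 16829400 to 16880353) fell from 71.6 and 74.5 CPM to 64.6 and 62.2 CPM, a log2 fold change of -0.20 (SE 0.0530). The call of SIN3B was lost without shMETTL14 library 2, where the value was -0.17. CTDSP1 (chromosome 2, 218398256 to 218405941) fell from 115 and 113 CPM to 102 and 95.5 CPM, a log2 fold change of -0.21 (SE 0.0470). Its exons share 468 bases, or 9.90% of their length, with the antisense gene AC021016.3, so part of its count is uncertain. HDAC2 shares 69 exon bases with HDAC2-AS2 and SIN3A 206 with AC068338.2, which adds a smaller doubt of the same kind.

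Levels of different genes were then compared per kilobase of annotated exon, over all annotated transcripts of a gene. This length exceeds that of a single transcript by unlike amounts. For RCOR3, PHF21A and HDAC2 it was 9092, 11190 and 15461 bases. Their transcripts with the longest coding part had 2041, 2730 and 9874 bases. For RCOR2 the lengths were 2738 and 2604 bases. The order of the genes therefore depends on the length used. REST was the lowest of the 10 in both groups, at 3.87 ± 0.00835 CPM per kilobase in shNC cells and 1.78 ± 0.184 in shMETTL14 cells (SD, n = 2 each). Next above it was RCOR3, at 6.33 and 4.82 CPM per kilobase. On this length, RCOR2 was the highest in shNC cells at 36.2 ± 0.810 CPM per kilobase. In shMETTL14 cells its level, 29.4 ± 0.371, could not be separated from that of HDAC2, 29.4 ± 0.667. The libraries of every other pair of neighbours in the order were separate in both groups, which does not cover an error in the lengths. The order of HDAC1 and CTDSP1 and that of SIN3A, SIN3B and PHF21A differed between the groups.

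**Figure D2:**
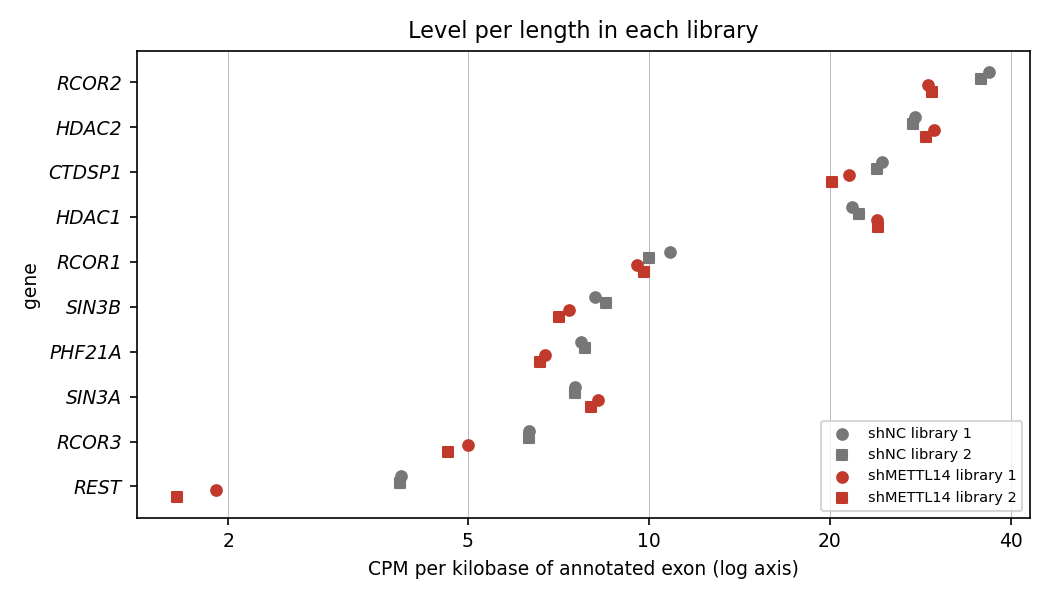
Level of each member gene in each library in CPM per kilobase of annotated exon, on a log axis, with genes ordered by their shNC mean. REST is lowest in each library, from 3.87 and 3.86 in shNC to 1.91 and 1.65 in shMETTL14, and RCOR2 is highest in shNC at 36.8 and 35.7.

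The makeup of each paralog family was compared next on the same exon lengths, so these shares depend on them too. For RCOR1, RCOR2 and RCOR3 the lengths were 6202, 2738 and 9092 bases. Their transcripts with the longest coding part had 5754, 2604 and 2041 bases. RCOR2 made up 68.1% and 68.6% of the summed RCOR level per kilobase in the shNC libraries and 66.6% and 67.2% in the shMETTL14 libraries. The RCOR1 share was 20.1% and 19.2% in shNC and 21.9% and 22.3% in shMETTL14. RCOR3 held 11.7% and 12.2% in shNC and 11.5% and 10.5% in shMETTL14. The groups did not overlap for any of the RCOR shares. Like all shares in this paragraph, these come from members chosen with this comparison known and are no further evidence of a change. HDAC1 held 43.9% and 44.8% of the HDAC1 and HDAC2 sum in shNC and 44.5% and 45.4% in shMETTL14, and these shares overlapped. SIN3A went from 48.1% and 47.1% of the SIN3 sum to 52.9% and 53.1%, so that on these lengths the larger share passed from SIN3B to SIN3A. In CPM without length, SIN3A was above SIN3B in both groups. The means were 94.0 and 73.1 CPM in shNC and 101 and 63.4 CPM in shMETTL14.

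REST was measured against its CoREST partners in the same libraries. Per kilobase, with the same limit on length, REST stood at 7.17% and 7.42% of the summed RCOR level in shNC cells and at 4.37% and 3.74% in shMETTL14 cells. The groups did not overlap on this measure, which holds the decrease of REST on which the set was selected and is no further evidence of it. The 9 corepressor genes summed to 98.2% and 95.8% of their mean shNC level in CPM in the shMETTL14 libraries, where the shNC libraries were at 100.3% and 99.7%. HDAC2 weighs most in this sum, and its mean went from 427 CPM in shNC to 454 CPM in shMETTL14. The sum therefore does not show how the less abundant corepressor genes stood.

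The genes whose pattern over the 4 libraries was most like that of REST were sought among 4422 tested genes of similar level, within 1 unit of its mean log2 CPM. Closeness was the root mean square difference of centred log2 CPM over 4 libraries. The closest were TMEM161B-DT (0.0158), PDLIM3 (0.0217), STK26 (0.0365), FAM117A (0.0405) and ZNF33B (0.0407). TMEM161B-DT is a long noncoding RNA gene, and its counts went from 700 and 659 in shNC to 335 and 291 in shMETTL14. PDLIM3, a PDZ and LIM domain gene of muscle, went from 967 and 947 to 476 and 415 counts. STK26, a kinase gene, went from 558 and 542 to 256 and 229 counts. With 4 libraries in 2 groups this likeness is mainly a like fold change, and it says nothing of shared control.

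Other cofactors that work with REST or CoREST were read next. The list held 21 genes, all of which could be tested, and 7 were called higher and 5 lower (background 27.2% higher and 25.3% lower). Its median log2 fold change was 0.02, and it was below 0 under upper quartile scaling (-0.0431) and with library size alone (-0.0206). RREB1, which encodes a zinc finger factor found with CoREST and CtBP, fell from 221 and 205 to 83 and 67 counts (log2 fold change -1.49, SE 0.153, edgeR adjusted p 3.6e-08). Both knockdown libraries lay below both control libraries, as was so for 37.6% of all tested genes. The zinc finger MYM genes ZMYM3 (-0.21) and ZMYM2 (-0.12) were lower by less; the ZMYM3 call was lost without shMETTL14 library 2 (-0.14), and the ZMYM2 call was lost in 5 alternative fits, among them those without shNC library 2 (-0.0838), without shMETTL14 library 1 (-0.14) and without shMETTL14 library 2 (-0.0797).

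The catalytic partner KDM1A, named for its role after its values were seen, was not called. Its counts were 9213 and 8491 in shNC and 9091 and 9031 in shMETTL14, and its log2 fold change was 0.04 (SE 0.0383, adjusted p 0.356); it was below 0 under upper quartile scaling and with library size alone. The 2 relatives of CTDSP1 went in opposite directions. CTDSP2 fell from 5047 and 4483 to 3396 and 3345 counts (log2 fold change -0.49, SE 0.0437, adjusted p 4.6e-09). CTDSPL rose from 1414 and 1185 to 2312 and 2247 counts (log2 fold change 0.82, SE 0.0551, adjusted p 5.0e-11). CTDSP1 itself, at -0.21, lay between them.

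Among the histone methyltransferase genes and their bridges, EHMT1, which encodes a histone H3 lysine methyltransferase, rose by 0.36 (SE 0.0529, adjusted p 5.3e-06). CDYL, which encodes a protein that bridges REST to the EHMT enzymes, rose by 0.58 (SE 0.0778, adjusted p 1.7e-06). SUV39H1 (0.32), another methyltransferase gene, and CTBP1 (0.28), a corepressor gene, were also called higher. EHMT2 (0.0070, adjusted p 0.914) and WIZ (-0.03, adjusted p 0.585), a methyltransferase gene and a gene for a bridge of the same kind, named after their values were seen, were not called, and EHMT2 was below 0 under 5 of the alternatives. The SUV39H1 call was lost without shNC library 2, where the value was 0.22, and with DESeq2. Of the exon bases of CTBP1 13.3%, and of those of SUV39H1 20.3%, are shared with other annotated genes, so their counts are uncertain.

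The SIN3 complex list held 18 genes, all tested, of which 7 were called higher and 6 lower, beside 27.2% and 25.3% of all tested genes. Its median log2 fold change was 0.0099, and it was below 0 with library size alone (-0.0352), under upper quartile scaling (-0.0577) and where every library had to hold 10 counts (-0.0082). The ING genes, whose products read methylated histone H3 for the complex, were among the highest. ING1 rose from 545 and 506 to 803 and 848 counts (log2 fold change 0.66, SE 0.0749, adjusted p 1.6e-07). ING2 rose from 131 and 114 to 192 and 185 counts (0.63, SE 0.137, adjusted p 5.5e-04). BRMS1, which encodes a coiled-coil subunit, rose by 0.57 (SE 0.0539, adjusted p 1.3e-08), whereas its paralog BRMS1L fell by 0.31 (SE 0.0931, adjusted p 0.0078). The BRMS1L call was lost without shMETTL14 library 2, where the value was -0.21, and with DESeq2.

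SAP30 (0.34) and SAP18 (0.22), genes for small bridging subunits, rose as well. OGT, the O-GlcNAc transferase that SIN3A binds, fell from 6149 and 5893 to 4065 and 3837 counts (log2 fold change -0.60, SE 0.0402, adjusted p 5.1e-11). ARID4B (-0.50), ARID4A (-0.38) and SUDS3 (-0.34), which encode further subunits, fell too. Of the exon bases of ARID4B, 15.7% are shared with other genes.

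**Figure D3:**
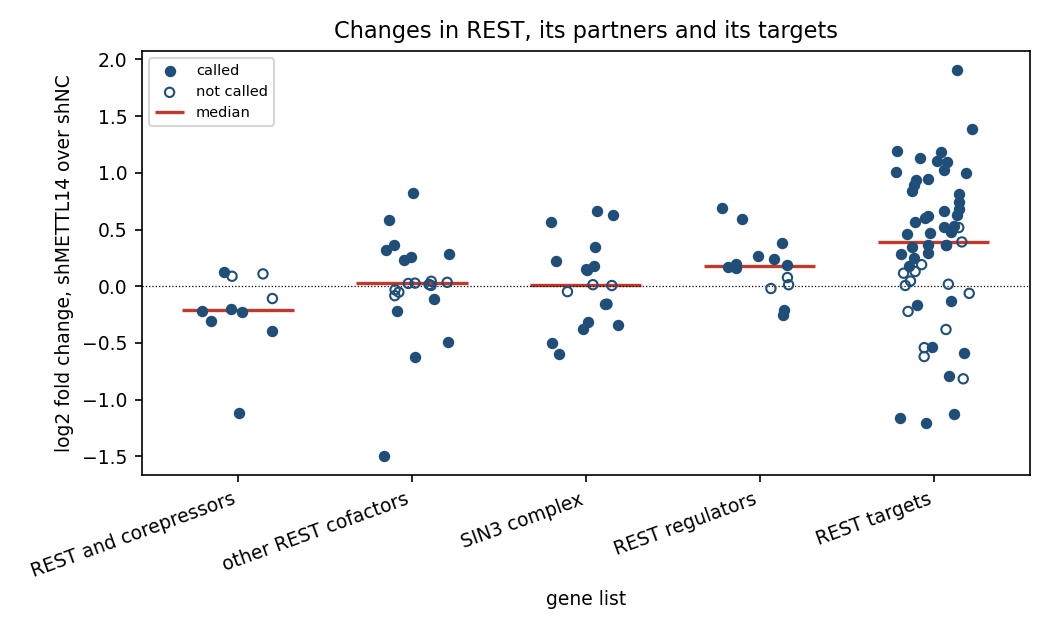
Log2 fold change (shMETTL14 over shNC) of each tested gene in the 10 members, the other REST cofactors, the SIN3 complex, the REST regulators and the REST targets; filled points were called at an adjusted p under 0.05, open points were not, and red lines are medians. The medians are -0.21, 0.02, 0.0099, 0.18 and 0.39.

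Genes that control REST itself were read from a list of 14, all tested, of which 9 were called higher and 2 lower (median log2 fold change 0.18), beside 27.2% higher and 25.3% lower over all tested genes. SRRM4 encodes a neural splicing factor that favours a truncated REST with little repressor activity. It rose from 336 and 288 to 480 and 518 counts (log2 fold change 0.69, SE 0.0935, adjusted p 2.2e-06). Its relative SRRM3 rose from 408 and 407 to 605 and 615 counts (0.59, SE 0.0811, adjusted p 2.5e-06). In both genes the knockdown libraries lay above the control libraries, as was so for 38.0% of all tested genes. Counts were per gene, so forms of REST made by splicing were not distinguished.

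Of the ubiquitin ligase genes that mark REST for degradation, SKP1, CUL1 and FBXW11 were called higher and BTRC lower. BTRC, which encodes the F-box protein that binds phosphorylated REST, was called lower at -0.21 (SE 0.0747, adjusted p 0.021), a call lost in 5 alternative fits, among them those without shNC library 2 (-0.18), without shMETTL14 library 1 (-0.20) and without shMETTL14 library 2 (-0.21). Its paralog FBXW11 rose by 0.24 (SE 0.0475, adjusted p 1.8e-04), and SKP1, the adaptor of the same ligase, rose by 0.38 (SE 0.0456, adjusted p 3.2e-07). CUL1, its cullin, named after its values were seen, rose by 0.16 (SE 0.0423, adjusted p 0.0028), a call lost under upper quartile scaling (0.0943). CSNK1A1, a kinase that phosphorylates REST for this step, fell by 0.25 (SE 0.0415, adjusted p 2.5e-05); 37.4% of its exon bases are shared with other annotated genes. HTT, whose product huntingtin holds REST in the cytoplasm, rose by 0.27 (SE 0.0493, adjusted p 9.9e-05).

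Host genes of microRNAs linked to REST were weakly expressed. Of 4 listed, 2 could be tested. MIR9-3HG rose from 163 and 150 to 263 and 318 counts (log2 fold change 0.90, SE 0.126, adjusted p 3.0e-06). MIR9-1HG, named after its values were seen, had 115 and 93 counts in shNC and 95 and 100 in shMETTL14, and was not called (-0.08, SE 0.173, adjusted p 0.717; above 0 without shNC library 1). The 2 hosts that could not be tested had at most 3 counts in any library.

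Targets known to be repressed by REST were listed from general knowledge, 68 genes in all. Of these, 57 were expressed highly enough to test, and 35 were called higher, 8 lower and 14 were not called. Among all tested genes 27.2% were called higher and 25.3% lower. The median log2 fold change of the tested targets was 0.39, against -0.00095 over all tested genes. That such targets were higher was already known from these libraries when the list was written. The counts, and the adjusted p-values of single targets below, are therefore no independent evidence. With DESeq2, 28 were called higher and 6 lower.

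**Figure D4:**
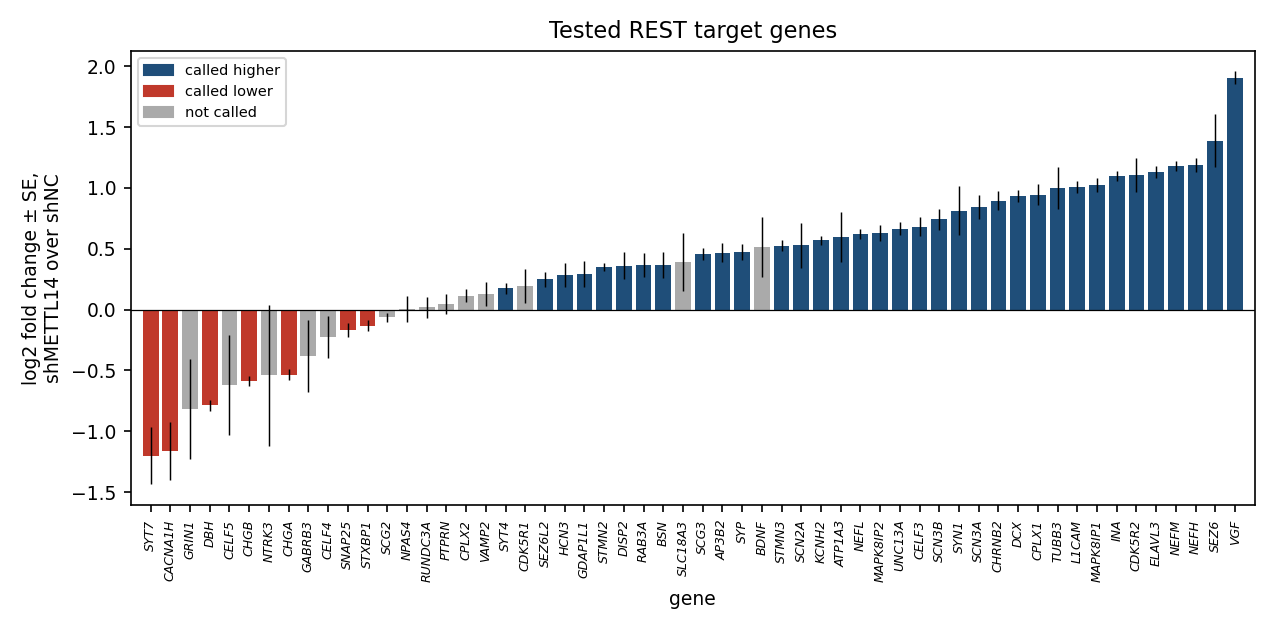
Log2 fold change (shMETTL14 over shNC) with its standard error for 56 of the 57 tested REST target genes, in order of the value. Blue bars were called higher (35), red bars lower (7) and grey bars were not called (14); VGF is highest at 1.91 and SYT7 lowest at -1.20.

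The 5 largest increases among the targets were in VGF, SEZ6, NEFH, NEFM and ELAVL3. VGF, a precursor of secreted peptides, went from 907 and 824 to 3153 and 3288 counts (log2 fold change 1.91). SEZ6, a synaptic membrane gene, rose from 44 and 37 to 119 and 92 counts (log2 fold change 1.39, SE 0.220, adjusted p 1.5e-05). NEFH, the heavy neurofilament chain, rose from 988 and 856 to 2035 and 2142 counts (1.19, SE 0.0571, adjusted p 2.1e-13). NEFM, the medium chain, and ELAVL3, an RNA-binding protein gene of neurons, had log2 fold changes of 1.18 and 1.13. Of the exon bases of NEFM, 38.9% are shared with other annotated genes. In each of these genes the knockdown libraries lay above the control libraries, as was so for 38.0% of all tested genes. Since the genes were picked as the largest called increases, nothing is read from this.

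The targets that were lower included genes of exocytosis, a calcium channel and catecholamine synthesis. SYT7, which encodes a calcium sensor of exocytosis, fell from 85 and 82 to 36 and 36 counts (log2 fold change -1.20, SE 0.235, adjusted p 1.8e-04). The calcium channel gene CACNA1H fell from 79 and 86 to 39 and 34 counts (-1.17, SE 0.238, adjusted p 2.9e-04). DBH, which makes noradrenaline, fell by 0.79 (SE 0.0461, adjusted p 5.5e-12); it is also counted among the noradrenergic markers. CHGB, a granule protein gene, fell by 0.59 (SE 0.0422, adjusted p 1.5e-10).

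Genes with related roles were not all on the same side. A few more targets were named for their role after their values were seen. Of the granule genes, SCG3 was called higher at 0.46 on the log2 scale (SE 0.0478, adjusted p 5.0e-08), CHGA lower at -0.53 (SE 0.0430, adjusted p 9.2e-10), and SCG2 was not called at -0.06 (SE 0.0371, adjusted p 0.163). SCG2 was called lower with library size alone, under upper quartile scaling and without shNC library 1 (-0.0947). SYP, a synaptic vesicle gene, was called higher at 0.47 (adjusted p 3.3e-06). SNAP25, a gene for a protein of vesicle fusion, was called lower at -0.17 (adjusted p 0.024). The SNAP25 call was lost in 4 alternative fits, among them those without shNC library 1 (-0.16) and without shMETTL14 library 2 (-0.12). The neurofilament genes INA (1.10) and NEFL (0.62) were higher together with NEFM and NEFH.

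The sites printed above were set beside expression. Of the 22 symbols with the RE1 word, 20 were in the count table and 8 were expressed highly enough to test. Of these 8, 3 were called higher and 2 lower, where 52.5% of all tested genes were called in either direction, and the median log2 fold change was 0.0767. SYN1, which encodes the vesicle protein synapsin, rose from 78 and 52 to 121 and 106 counts (log2 fold change 0.81, SE 0.198, adjusted p 0.0015). TTC9B rose from 144 and 139 to 206 and 232 counts (0.64, adjusted p 2.8e-04), and VOPP1 rose by 0.38 (SE 0.0631, adjusted p 2.7e-05). FAM163B fell by 0.29 (SE 0.0748, adjusted p 0.0029).

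UCN, a neuropeptide gene at the edge of detection, had 14 and 15 counts in shNC and 3 and 7 in shMETTL14, and was called lower with an adjusted p of 0.031. Its call was lost in 6 of the alternative fits in which it was tested, among them the 4 that each left out 1 library, with log2 fold changes between -2.22 (shMETTL14 library 2 left out) and -1.01 (shMETTL14 library 1 left out). CDK5R1 (0.19), OGDHL (-0.04) and RPH3A (-0.15) were not called, and OGDHL was above 0 without shNC library 1. GRIA2, a glutamate receptor gene too weak to test, had 10 and 5 counts in shNC and 1 and 2 in shMETTL14.

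Since METTL14 acts in the m6A writer, copies of GGACT, a word in which m6A is often placed, were counted on the transcript strand, in the transcript of each member with the longest coding part; m6A itself was not measured in these libraries. REST had 5 copies in 7300 bases, 2 in the coding part and 3 in the 3′ UTR, or 0.685 per kilobase. Across 12832 tested coding genes the median was 0.938 per kilobase, and 33.0% of genes had a lower density than REST. The densest members were RCOR1, with 9 copies at 1.56 per kilobase, and SIN3B, with 8 copies at 1.56 per kilobase. The sparsest were RCOR2, with 1 copy at 0.384 per kilobase, and HDAC1, with 1 copy at 0.471 per kilobase. CTDSP1 was at 1.14 and RCOR3 at 0.980 per kilobase, and SIN3A, PHF21A and HDAC2 were at 0.742, 0.733 and 0.608. On these transcripts, members that were called lower stood both above and below the median, and so did members that were not. The densities depend on the transcript used. For RCOR3 and PHF21A it had 2041 and 2730 bases, with 3′ UTRs of 254 and 490 bases. Their annotated exons cover 9092 and 11190 bases. Copies in exon bases outside the chosen transcripts were not counted. These counts describe letters only and no site was shown to be methylated.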

How the data were processed

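The authors deposited raw read counts per Ensembl gene ID for 4 libraries, with the closing lines that htseq-count writes. The submitters' processing notes name HISAT2 2.1.0, StringTie 1.3.6, HTSeq 0.13.5, edgeR and GRCh38, without roles; strand setting and annotation release are not given in the sources used here. Reads given to no gene, between 19.1% and 19.9% of a library, were left out. They include reads marked ambiguous, between 5.01% and 5.32% of a library. Of 60671 IDs, 60401 matched a gene name table and 58453 GENCODE 29.

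Counts were tested with edgeR 4.0.16 in R 4.3.3 (quasi-likelihood F-test, TMM scaling, group as the only term), after the filterByExpr defaults (minimum count 10, minimum total 15). Adjustment followed Benjamini and Hochberg over 16309 genes, with calls at 0.05. Standard errors derive from the F statistic. Without a strand setting, it is not known how reads of overlapping genes were assigned. The code was checked on simulated counts.

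The members and lists were chosen with earlier results of these data known, so adjusted p-values printed for list genes are a description and no independent evidence. Named were all members, METTL14, NOA1, the 5 largest called changes in each direction of each list, tested genes with the RE1 word and GRIA2, and the 5 genes most like REST; list genes at 3 counts or fewer were only counted, and other names are marked in the text. A few genes that this rule names are not reported here, though they stay in the counts. Alternatives were RLE, upper quartile and library size scaling, no filter, at least 10 counts per library, DESeq2 1.42.0, a replicate block and leaving out each library. The count of genes with the RE1 word was added after the data were seen.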

Additional observations from a re-analysis of the deposited data

How the results depend on the processing

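Over 11 alternatives, REST was lower and called in each, with log2 fold changes between -1.23 (shMETTL14 library 1 left out) and -1.01 (shMETTL14 library 2 left out). The number of members called, 7, was between 5 and 9, and leaving out 1 library each gave 5 to 8. RCOR2, RCOR3, PHF21A and CTDSP1 also kept their calls in 11 of 11, SIN3B in 10 and HDAC1 in 3. In the fits that left out 1 library, the lone library of its group was assumed to vary like the other group. The edgeR fit called 8561 genes (4438 higher and 4123 lower) and the DESeq2 fit 6022. Upper quartile scaling gave 3550 higher and 4961 lower, with a median log2 fold change of -0.0686 over all tested genes. The counts of called REST targets were between 34 and 44.

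Libraries of the same number did not deviate together (Pearson correlation -0.0018 over genes), and the labels give no other pairing. In a fit with a replicate block, 8926 genes and 9 members were called, HDAC2 (0.09) and SIN3A (0.11) in addition, and REST was at -1.12.

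Among 65 other genes, 26 values lost their call, 3 gained it and 9 changed sign, each in a gene that was not called. These were KDM1A with upper quartile scaling (-0.0239) and with library size alone (-0.0015), and EHMT2 with the same scalings (-0.0606 and -0.0381), with at least 10 counts per library (-0.0112), without shNC library 1 and without shMETTL14 library 2 (range -0.0188 to 0.0355 over the libraries left out). OGDHL (range -0.0800 to 0.0092) and MIR9-1HG (range -0.19 to 0.0439) were above 0 without shNC library 1. The cause was not tested. Genes under about 10 counts could not be tested at this depth.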
